A study of Mus musculus with 12 samples.

Results

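The 39 genes described here build proteins in the endoplasmic reticulum (ER) of the newborn mouse lung: its chaperones, disulphide isomerases, protein-conducting channel, disposal machinery and stress sensors. They are a list of names, with no measured value in the rule but with earlier results of these data known, out of 23478 gene rows of the deposited count table. All 39 had enough counts to be tested, as did 15761 genes in all. RNA-seq was done on lungs of C57/Bl6 mice from which the lavage fluid had been taken. The pups were injected intraperitoneally on day 0 and then kept for 72 h in their gas. The 4 groups of 3 samples were saline with room air, aurothioglucose at 25 mg/kg (ATG, a gold-containing inhibitor of thioredoxin reductase) with room air, saline with oxygen above 95% (hyperoxia), and ATG with hyperoxia. All pups had an injection, and the labels give a strain and no altered allele.

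Proteins bound for the cell surface or for secretion, such as surfactant proteins and the collagens and elastin of the growing lung, are threaded into the ER as they are made. They are folded there by chaperones and joined by disulphide bonds, and those that fail are pulled back to the cytosol and degraded. When unfolded proteins pile up, the sensors IRE1, PERK and ATF6 start the unfolded protein response, in which ATF6 and XBP1 raise the genes of chaperones and PERK leads to the transcription factor ATF4.

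Part of that response is written in the promoters. The ER stress response element (ERSE, the letters CCAAT and CCACG with 9 free bases between them) is bound by ATF6 and XBP1 next to the factor NF-Y, and ERSE-II (ATTGG and CCACG with 1 free base between them) is a shorter relative of it. RefSeq promoter windows of GRCm38.p6, from 250 bases before to 50 after each annotated start, were found for 32 of the 39 genes, with 33 windows. ERSE was found on either strand in 9 of these 32 genes and in 0.119% of all 32851 windows of that length, and ERSE-II in 2 of 32 genes and 0.0365% of windows. The C/EBP-ATF element (CARE, TGATGNAA), which ATF4 can bind, was found in 1 of the 32 genes and in 3.97% of all windows. TGACGTGG, the UPR element, was found in 0 of the 32 genes and in 0.676% of all windows. No match to 1 motif overlapped a match to another in the genes' windows. A match is a run of letters and not a shown binding site.

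The 250 bases before the start of 6 genes are shown because these genes were called in hyperoxia and hold a match: 5 that carry ERSE and belong to the folding machinery, and Herpud1, which carries ERSE-II and CARE. They were picked with their calls known. Calr, among those shown, was called in ATG only and not on average. Canx, Creld2, Syvn1 and Derl3 also carry ERSE and were not called on average. The windows of P4hb, Pdia3, Pdia4, Dnajb11, Sec61b, Ssr1 and Ssr3, which were called lower, hold no ERSE. Hyou1 and Sec61a1 were also called lower and had no window. Capitals mark the matches, and every sequence reads 5′ to 3′ on the gene's own strand. The windows lie, in the order shown, at chr2:34771840-34772089 on the plus strand, chr10:86705445-86705694 on the minus strand, chr12:17266339-17266588 on the plus strand, chr14:118937682-118937931 on the plus strand, chr8:84846932-84847181 on the minus strand and chr8:94386179-94386428 on the plus strand.
Hspa5: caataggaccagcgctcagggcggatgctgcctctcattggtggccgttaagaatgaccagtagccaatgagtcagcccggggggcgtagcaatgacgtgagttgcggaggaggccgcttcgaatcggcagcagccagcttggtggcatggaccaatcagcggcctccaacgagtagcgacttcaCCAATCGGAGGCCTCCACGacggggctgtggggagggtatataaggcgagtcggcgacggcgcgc
Hsp90b1: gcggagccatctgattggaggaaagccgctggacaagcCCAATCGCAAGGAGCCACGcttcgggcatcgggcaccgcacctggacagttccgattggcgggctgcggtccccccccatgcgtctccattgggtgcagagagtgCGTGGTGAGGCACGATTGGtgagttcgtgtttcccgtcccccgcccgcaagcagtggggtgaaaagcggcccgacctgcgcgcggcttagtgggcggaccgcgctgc
Pdia6: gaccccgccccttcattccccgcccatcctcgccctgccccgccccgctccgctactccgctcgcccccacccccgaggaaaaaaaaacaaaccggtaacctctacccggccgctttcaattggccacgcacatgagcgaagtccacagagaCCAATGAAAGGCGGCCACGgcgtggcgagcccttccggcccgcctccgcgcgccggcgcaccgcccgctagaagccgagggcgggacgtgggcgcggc
Dnajc3: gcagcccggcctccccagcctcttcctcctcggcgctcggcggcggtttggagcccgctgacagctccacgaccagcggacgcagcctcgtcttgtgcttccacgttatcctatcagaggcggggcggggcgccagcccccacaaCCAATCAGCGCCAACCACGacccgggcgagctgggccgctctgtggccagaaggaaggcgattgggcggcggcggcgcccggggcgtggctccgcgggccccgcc
Calr: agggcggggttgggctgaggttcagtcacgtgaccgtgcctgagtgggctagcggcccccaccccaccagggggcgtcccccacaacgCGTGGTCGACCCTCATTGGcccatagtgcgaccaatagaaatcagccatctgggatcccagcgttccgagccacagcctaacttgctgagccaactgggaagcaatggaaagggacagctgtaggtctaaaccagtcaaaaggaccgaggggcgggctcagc
Herpud1: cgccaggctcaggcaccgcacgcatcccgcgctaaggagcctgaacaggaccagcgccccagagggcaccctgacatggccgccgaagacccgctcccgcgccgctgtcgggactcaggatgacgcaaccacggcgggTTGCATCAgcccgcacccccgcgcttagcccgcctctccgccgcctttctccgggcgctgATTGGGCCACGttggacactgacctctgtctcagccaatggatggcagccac
Counted back from the start, ERSE covered bases −65 to −47 of Hspa5, −98 to −80 of Pdia6 and −105 to −87 of Dnajc3. In Calr it lay on the other strand, at −162 to −144. Hsp90b1 had 2 copies, at −212 to −194 and, on the other strand, at −107 to −89. In Herpud1 ERSE-II covered −52 to −42 and CARE −112 to −105, on the other strand. Dnajb11 had ERSE-II after its start, at 8 to 18. Starts are those of RefSeq, and for Dnajc3 and Herpud1 the 50 bases after them were not found in a GENCODE transcript, so positions counted from another start would differ. The other genes with ERSE were Canx, Creld2, Syvn1 and Derl3.

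Depth ran from 14331749 to 20486735 counts per library, and the lowest and highest totals were 14331749 and 15916703 in saline room air, 14589812 and 17368904 in ATG room air, 16490223 and 19267023 in saline hyperoxia, and 18009965 and 20486735 in ATG hyperoxia. Levels are CPM, counts divided by the scaled library size, and log2 fold changes, standard errors and Benjamini-Hochberg adjusted p-values come from edgeR's quasi-likelihood test over all genes, with a threshold of 0.05. The labels do not say that samples came from separate litters or animals, so p-values measure the spread between samples, which may be technical. Saline hyperoxia 2 and ATG hyperoxia 2 carried heart RNA (Nppa, the atrial natriuretic peptide gene, at 270 and 1108 CPM against 1.85 to 3.55 CPM elsewhere), and saline hyperoxia 1 carried skeletal muscle RNA (Myh8, a myosin, at 175 CPM). Results are given with and without these 3 libraries where a call changed. In lungs measured in bulk, fewer cells of a type and less RNA per cell cannot be told apart.

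In saline room air, the highest levels per length were those of the chaperones Hsp90b1 and Hspa5 and the isomerase P4hb. Hsp90b1 stood at 287 ± 14.6 CPM per kb of exon, P4hb at 246 ± 9.07 and Hspa5 at 197 ± 10.4 (SD, n = 3), and these ranges did not overlap. Below them came Ssr3 at 147, Pdia3 at 119, Canx at 104.5 and Calr at 83.6 CPM per kb. The other chaperones and cochaperones of the Hsp70 and Hsp90 system lay lower, from Dnajc3 at 51.1 to Sdf2l1 at 9.94 CPM per kb. The sensor Ern1 was near the bottom at 2.69 and Derl3 last at 0.726 CPM per kb. Between them the order is close: Xbp1 at 54.8 ± 1.33 and Pdia4 at 54.2 ± 0.804 CPM per kb differed by less than their SD. Exon lengths are unions from GENCODE, and the lengths used in the authors' counting may have differed. Some levels may hold reads of other genes, since 30.8% of the 50-base windows of Ppib were shared with transcripts of other genes, mainly Snx22, as were 17.4% of Sec61b, 10.98% of Ssr2 and 9.75% of Hsp90b1. For Hspa5, P4hb, Herpud1, Atf6 and Xbp1 that share was 0.

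**Figure D1:**
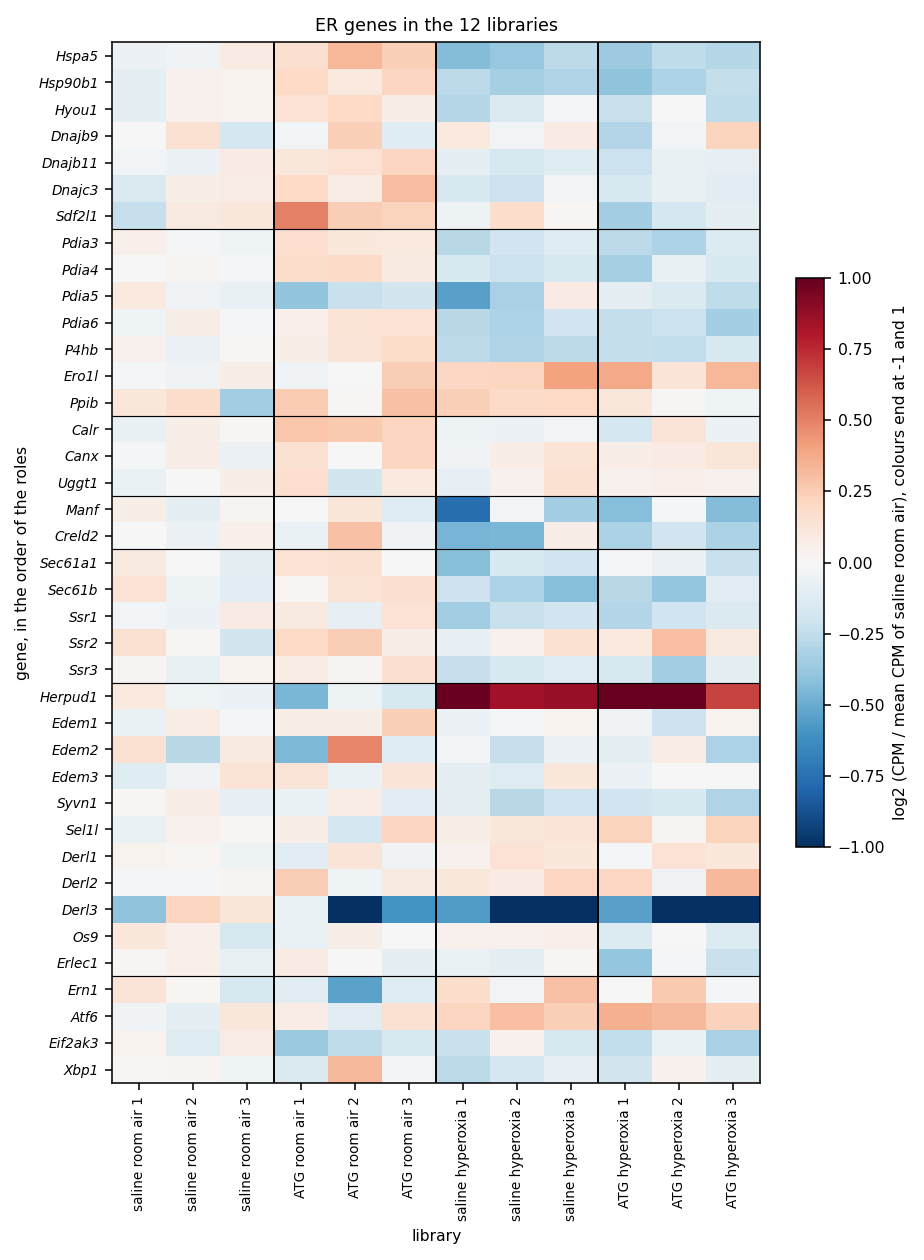
Level of each of the 39 ER genes (rows, in the order of their roles, with lines between roles) in each of the 12 libraries (columns), as log2 of CPM over the mean CPM of the saline room air group. Colours end at −1 and 1. Most chaperone, isomerase and translocon rows are bluer in the 6 hyperoxia libraries, and Herpud1 is red in all of them.

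Averaged over both injections, hyperoxia lowered 13 of the 39 genes and raised 3, while 23 did not pass the test. Over all genes tested, 11.3% were called lower and 11% higher, 22.4% in either direction. The lowered genes were folding and translocation genes: 5 of 7 chaperones and cochaperones of the Hsp70 and Hsp90 system, 4 of 7 isomerases and related enzymes, and 4 of 5 translocon genes. The raised genes were Herpud1, Ero1l and Atf6. Of the 11 genes of ER-associated degradation, 10 did not pass. The median log2 fold change of the 39 genes was −0.15, against −0.00 over all genes. Leaving out the 3 libraries rich in heart or muscle RNA left saline hyperoxia 3 alone in its group. In that fit the 3 raised genes kept their calls. Of the 13 lowered genes only Hspa5, Hsp90b1, Pdia4, Pdia6 and P4hb kept theirs, and a gene outside the 13 was called lower.

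Markers of the type 2 cell, which makes surfactant and is a main secretory cell of the lung, moved as well. The summed level of 8 such markers, all of them detected, was 12789 to 13597 CPM in saline room air and 14120 to 15465 CPM in saline hyperoxia, 14805 to 16950 CPM in ATG room air and 14440 to 16790 CPM in ATG hyperoxia. Of the 8, edgeR called 4 higher and 1 lower with hyperoxia in saline, and 0 higher and 2 lower in ATG. Their part in the hyperoxia changes was not tested.

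Some calls of single genes were also lost without the libraries rich in heart or muscle RNA, and the part of that RNA in them was not tested. These fits had fewer samples, and leaving out all 3 left saline hyperoxia 3 alone in its group. Several of the same calls were lost without other single libraries too, as given for each gene. In saline, Hsp90b1, P4hb and Pdia6 no longer passed without the 2 heart-rich libraries (log2 changes of −0.27, −0.25 and −0.22), nor without all 3 (−0.29, −0.25 and −0.17; edgeR). In ATG, Dnajc3, Sdf2l1 and Ssr3 no longer passed without the 2 (−0.32, −0.52 and −0.20) or the 3 (−0.31, −0.51 and −0.19), and Dnajb11 without the 3 (−0.28; edgeR). On average, Dnajc3 and Sec61b were lost without the 2 (−0.20 and −0.29) and the 3 (−0.16 and −0.34). Hyou1, Sec61a1, Dnajb11, Pdia3, Ssr1 and Ssr3 were lost on average without the 3 (−0.17, −0.18, −0.19, −0.20, −0.21 and −0.15; edgeR). Of the wider lists described further on, Tram1 and Rnf139 were lost on average without the 2 (−0.16 and 0.22) and the 3 (−0.15 and 0.26), and Ostc, Ddost and Ube2g2 without the 3 (−0.26, −0.14 and 0.28; edgeR).

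Hspa5 encodes BiP, the Hsp70 of the ER lumen, which binds nascent chains and holds the stress sensors inactive. Hspa5 stood at 800.1, 813 and 882 CPM in saline room air, 929.7, 1045 and 982 CPM in ATG room air, 614, 639.7 and 694 CPM in saline hyperoxia, and 646, 696 and 684 in ATG hyperoxia. All 6 hyperoxia libraries lay below all 6 room air libraries, and among the latter the ATG libraries were the higher. Hyperoxia lowered Hspa5 by a log2 fold change of −0.45, SE 0.05, adjusted p = 4.49e-05 (edgeR), a change of −26.9%. It was −0.36, SE 0.08, adjusted p = 0.00975 in saline and −0.55, SE 0.08, adjusted p = 0.000483 in ATG (edgeR). In saline the call was lost without saline room air 3 or saline hyperoxia 1 (−0.31 in each) and without the 3 libraries rich in heart or muscle RNA (−0.25).

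Hsp90b1 encodes GRP94, the Hsp90 of the ER, whose clients include integrins and Toll-like receptors. Hsp90b1 stood at 1088, 1193 and 1186 CPM in saline room air, 1327, 1233 and 1338 CPM in ATG room air, 962, 917 and 936 CPM in saline hyperoxia, and 873, 934 and 980.5 in ATG hyperoxia. The hyperoxia libraries were again all below the room air libraries. The log2 fold change was −0.39, SE 0.05, adjusted p = 8.55e-05 on average, −0.30, adjusted p = 0.0183 in saline and −0.48, adjusted p = 0.000724 in ATG (edgeR). In saline the call was lost without saline room air 2 or 3 or saline hyperoxia 2 or 3 (−0.30 to −0.27). Part of this gene's exons overlaps other annotated genes.

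The cochaperones moved less. Dnajb11, a J protein that hands unfolded chains to BiP, stood at 133, 130.1 and 143 CPM in saline room air, 147, 149.6 and 157 CPM in ATG room air, 127, 121 and 125 CPM in saline hyperoxia, and 117, 129 and 128 in ATG hyperoxia. Its hyperoxia libraries all lay below its room air libraries, by a narrow margin between saline room air 2 and ATG hyperoxia 2. The log2 fold change was −0.20, SE 0.05, adjusted p = 0.0105 on average and −0.28, adjusted p = 0.021 in ATG, and it did not pass in saline (−0.12, adjusted p = 0.333; edgeR). The ATG call was lost without ATG room air 1 or 3 or ATG hyperoxia 1 (−0.28 to −0.22).

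Dnajc3 (p58IPK), a J protein that also restrains the kinase PERK, stood at 238, 274 and 276 CPM in saline room air, 302, 276 and 326 CPM in ATG room air, 235, 228 and 258 CPM in saline hyperoxia, and 236, 249 and 243 in ATG hyperoxia. Its saline groups overlapped and its ATG groups did not. The log2 fold change was −0.22, adjusted p = 0.0163 on average and −0.31, adjusted p = 0.0279 in ATG (edgeR). The average call was lost without saline room air 2 or 3, ATG room air 3 or saline hyperoxia 2 (−0.19 to −0.18). The ATG call was lost without ATG room air 1 or 3 or any 1 ATG hyperoxia library (−0.32 to −0.24).

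Hyou1 (GRP170), the nucleotide exchange factor of BiP, stood at 104 ± 5.26 CPM in saline room air, 115 ± 5.21 CPM in ATG room air, 94.5 ± 9.01 CPM in saline hyperoxia, and 93.7 ± 9.18 in ATG hyperoxia (SD, n = 3). Its average change was −0.22, adjusted p = 0.025 (edgeR), and that call was lost without any 1 of 8 libraries, namely saline room air 2 or 3, ATG room air 1 or 2, saline hyperoxia 1 or 2, and ATG hyperoxia 1 or 3 (−0.21 to −0.17). Sdf2l1, which keeps J protein and BiP complexes active, stood at 11.01 ± 1.42 CPM in saline room air, 13.9 ± 1.55 CPM in ATG room air, 11.4 ± 0.933 CPM in saline hyperoxia, and 9.61 ± 0.825 in ATG hyperoxia (SD, n = 3). It was called lower with hyperoxia in ATG (−0.53, adjusted p = 0.0441) and not in saline (0.05, adjusted p = 0.889; edgeR), and the ATG call was lost without any 1 library other than saline room air 1 (−0.57 to −0.41). Dnajb9 (ERdj4) did not pass in any comparison, and its average change was 0.00, adjusted p = 0.991 (edgeR).

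**Figure D2:**
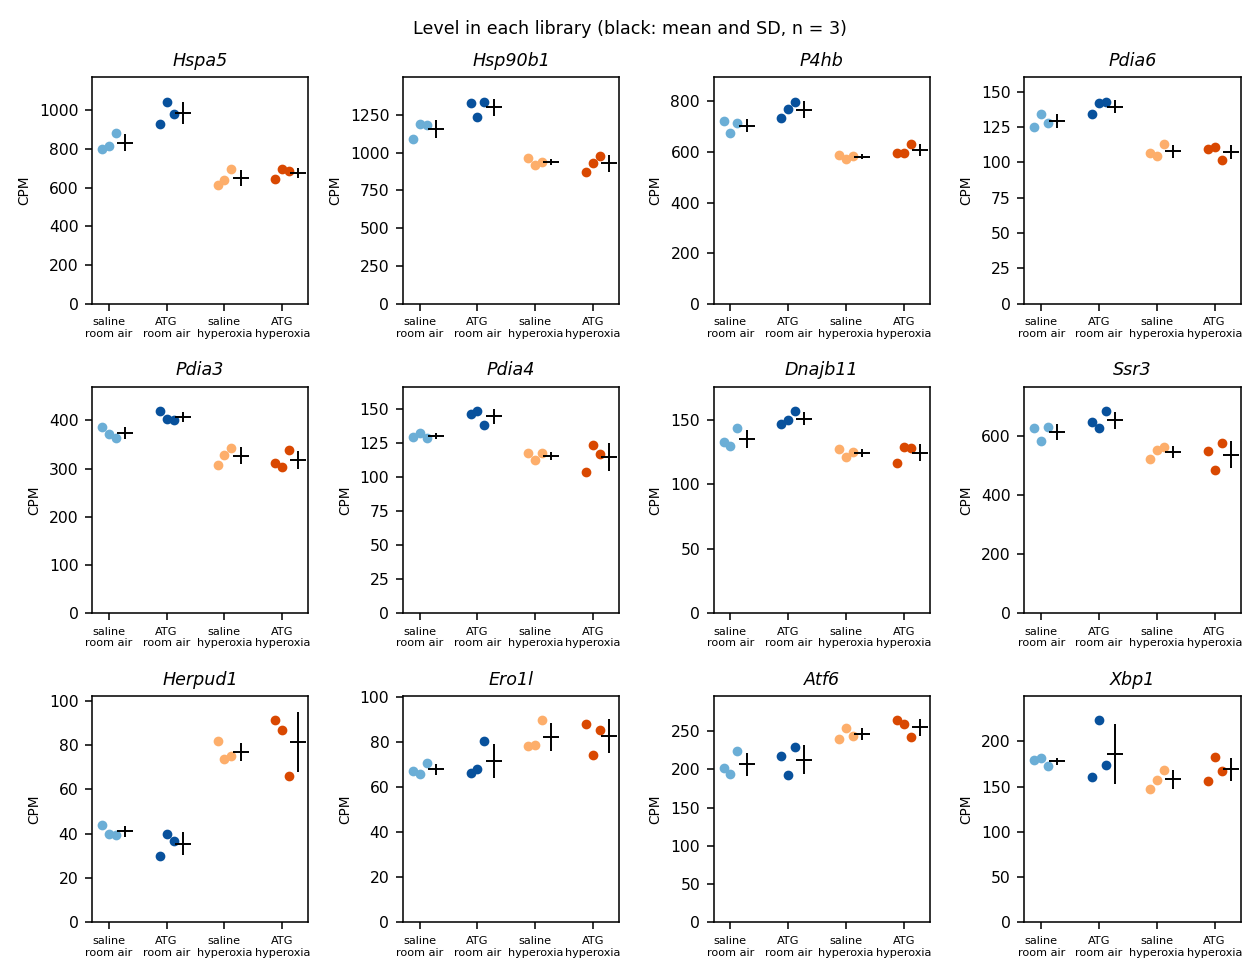
CPM of 12 ER genes in each library, by group (dots), with the mean and SD of each group in black (n = 3) and every axis starting at 0. Hspa5, Hsp90b1, P4hb, Pdia6, Pdia3, Pdia4, Dnajb11 and Ssr3 are lower in all hyperoxia libraries than in all room air libraries, and Herpud1 and Atf6 are higher.

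Protein disulphide isomerases pair the cysteines of folding proteins. P4hb, the most abundant of them and also the beta subunit of the prolyl hydroxylase that modifies collagen, stood at 724, 674 and 713 CPM in saline room air, 734, 769 and 799 CPM in ATG room air, 588, 572 and 586 CPM in saline hyperoxia, and 595, 595 and 633 in ATG hyperoxia. Hyperoxia lowered it by a log2 fold change of −0.31, SE 0.05, adjusted p = 0.000363 on average, −0.27, adjusted p = 0.0208 in saline and −0.34, adjusted p = 0.00492 in ATG (edgeR). In saline the call was lost without saline room air 1 or 3 or any 1 saline hyperoxia library (−0.28 to −0.25). No hyperoxia library reached the lowest room air library.

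Pdia6, an isomerase that also acts on IRE1 and PERK, stood at 125, 135 and 128 CPM in saline room air, 134, 142 and 143 CPM in ATG room air, 106, 104 and 113 CPM in saline hyperoxia, and 109.6, 111 and 102 in ATG hyperoxia. The groups kept apart in the same way. Its change was −0.32, adjusted p = 0.000353 on average, −0.26, adjusted p = 0.0333 in saline and −0.38, adjusted p = 0.00297 in ATG (edgeR). In saline the call was lost without any 1 saline library or ATG hyperoxia 1 (−0.29 to −0.22).

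Pdia3 (ERp57), which works with calnexin and calreticulin on glycoproteins, stood at 387, 371 and 364 CPM in saline room air, 419, 403 and 401 CPM in ATG room air, 308, 328 and 344 CPM in saline hyperoxia, and 312, 303 and 339 in ATG hyperoxia. Its hyperoxia libraries did not reach its room air libraries. The change was −0.28, adjusted p = 0.00138 on average and −0.36, adjusted p = 0.00524 in ATG, and −0.20, adjusted p = 0.117 in saline did not pass (edgeR).

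Pdia4 (ERp72) stood at 129, 132 and 128 CPM in saline room air, 146, 148 and 138 CPM in ATG room air, 117, 112 and 117 CPM in saline hyperoxia, and 103, 124 and 117 in ATG hyperoxia. These too were apart, with ATG hyperoxia 2 the highest of the oxygen-exposed lungs. Its change was −0.25, adjusted p = 0.00352 on average and −0.33, adjusted p = 0.0102 in ATG, and −0.17, adjusted p = 0.196 in saline did not pass (edgeR). The ATG call was lost without ATG room air 1 or ATG hyperoxia 1 (−0.31 and −0.25).

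Ero1l (Ero1a in RefSeq), the oxidase that recharges the isomerases with molecular oxygen as its acceptor, went the other way. Ero1l stood at 67.01, 66.1 and 70.6 CPM in saline room air, 66.3, 68.02 and 80.3 CPM in ATG room air, 78.4, 78.9 and 89.6 CPM in saline hyperoxia, and 88.3, 74.4 and 85.6 in ATG hyperoxia. The saline groups did not overlap, while in ATG the libraries did. The average change was 0.24, SE 0.07, adjusted p = 0.0191 (edgeR), and it passed in all alternatives tried, but neither 0.28, adjusted p = 0.0938 in saline nor 0.21, adjusted p = 0.193 in ATG passed. Pdia5 (−0.07, adjusted p = 0.729) and the cyclophilin Ppib (0.02, adjusted p = 0.902; edgeR) did not pass on average.

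The lectin cycle holds glycoproteins in the ER until they fold. Calr (calreticulin), its soluble chaperone and a calcium store, stood at 241 ± 10.7 CPM in saline room air, 286 ± 6.54 CPM in ATG room air, 233 ± 2.54 CPM in saline hyperoxia, and 236 ± 25.5 in ATG hyperoxia (SD, n = 3). It was called lower with hyperoxia in ATG (−0.28, adjusted p = 0.0369), not in saline (−0.05, adjusted p = 0.79) and not on average (−0.16, adjusted p = 0.0545; edgeR). The ATG call was lost without any 1 library other than ATG hyperoxia 2 (−0.28 to −0.20). Its membrane-bound relative Canx (calnexin) had an average change of 0.01, adjusted p = 0.901, and the folding sensor Uggt1 of 0.02, adjusted p = 0.832 (edgeR). The standard errors of these were 0.05 and 0.06. Both secreted stress proteins missed the threshold, Manf at −0.31, adjusted p = 0.0649 and Creld2 at −0.31, adjusted p = 0.0523 (edgeR).

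**Figure D3:**
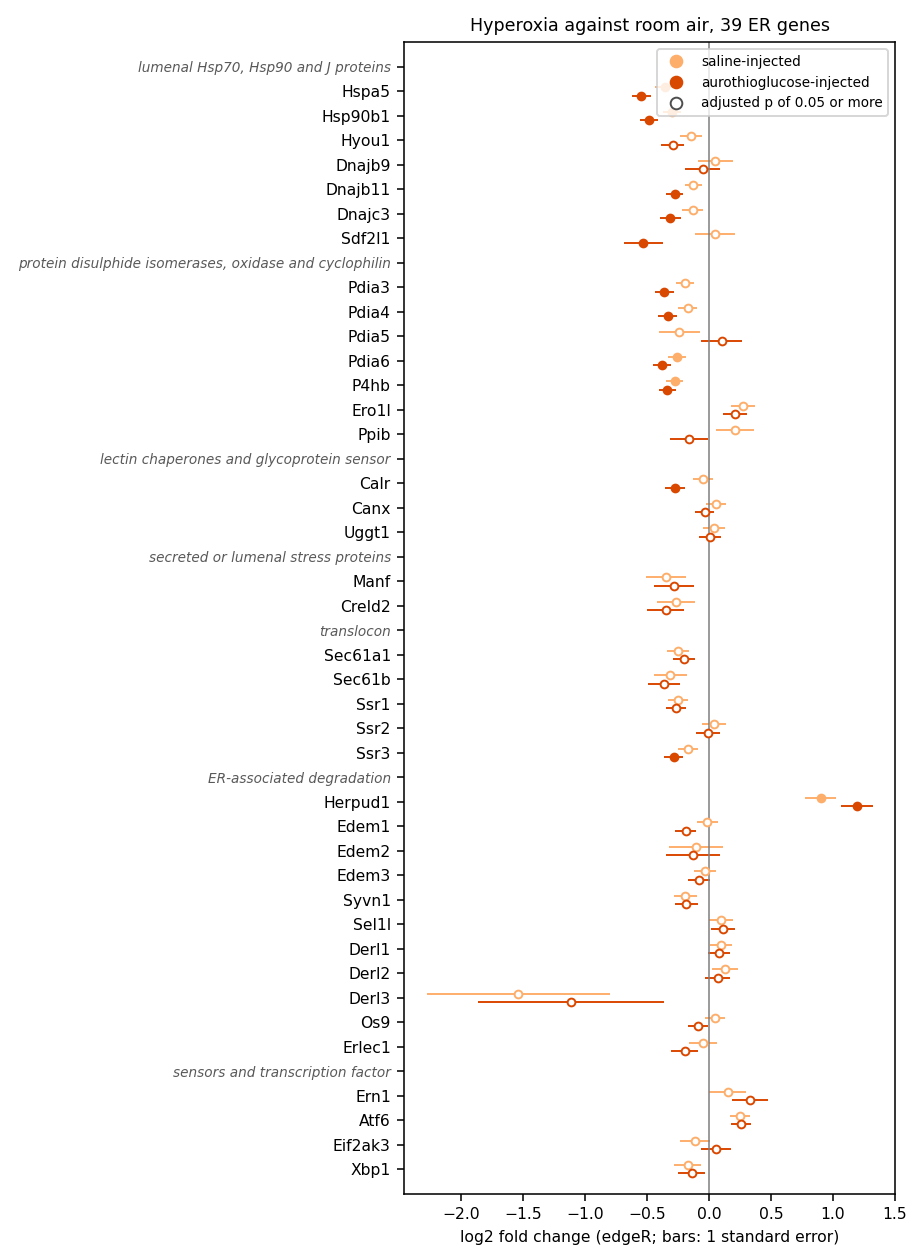
Log2 fold change of hyperoxia against room air (x axis) for each of the 39 ER genes, in saline-injected and ATG-injected pups, with bars of 1 standard error and filled dots for an adjusted p under 0.05 (edgeR). In saline 4 genes are called lower and in ATG 11, and Herpud1 is the only gene called higher in either, at 0.90 and 1.19.

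The translocon is the channel through which chains enter the ER. Sec61a1, its pore subunit, stood at 201, 189 and 178 CPM in saline room air, 209.5, 211 and 190.2 CPM in ATG room air, 141, 170.5 and 166 CPM in saline hyperoxia, and 187, 182 and 162 in ATG hyperoxia. The groups were apart within each injection, though saline room air 3 lay below ATG hyperoxia 1 and 2. The average change was −0.22, adjusted p = 0.019 (edgeR), and it was lost without saline room air 1, ATG room air 1, saline hyperoxia 1 or ATG hyperoxia 3 (−0.20 to −0.18).

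Sec61b, a small subunit of the pore, stood at 19.5, 17.00 and 16.3 CPM in saline room air, 17.9, 19.4 and 19.6 CPM in ATG room air, 15.2, 14.2 and 13.1 CPM in saline hyperoxia, and 14.5, 13.5 and 16.3 in ATG hyperoxia. Its hyperoxia libraries lay below room air within each injection. The average change was −0.34, adjusted p = 0.0183 (edgeR), and it was lost without saline room air 1, saline hyperoxia 3 or ATG hyperoxia 2 (−0.30 to −0.29).

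The translocon-associated protein complex, which helps chains to enter, had 2 of its 4 measured subunits called lower. Ssr1 stood at 361, 353 and 391 CPM in saline room air, 391, 348 and 407 CPM in ATG room air, 289.5, 315 and 323 CPM in saline hyperoxia, and 301, 321 and 333 in ATG hyperoxia. Ssr3 stood at 625, 582 and 629 CPM in saline room air, 646, 625 and 683 CPM in ATG room air, 522, 552 and 561 CPM in saline hyperoxia, and 547, 484 and 573 in ATG hyperoxia. Both were lower in all hyperoxia libraries than in all room air libraries, with average changes of −0.26, adjusted p = 0.00528 and −0.23, adjusted p = 0.00927 (edgeR). Ssr3 was also called lower in ATG (−0.28, adjusted p = 0.0304; edgeR), a call that was lost without any 1 of 7 libraries, namely the 3 of saline room air, ATG room air 1 or 3, and ATG hyperoxia 1 or 2 (−0.29 to −0.20). Ssr2, of the same complex, had an average change of 0.02, adjusted p = 0.89 (edgeR). Ssr4, its other subunit and a gene of the wider lists, had a positive estimate of 0.24 that did not pass (edgeR adjusted p = 0.083).

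Herpud1 was the gene that changed most among the 16 called on average. It encodes a small ER membrane protein that gathers the ubiquitin ligase complex of ER-associated degradation. Herpud1 stood at 44.1, 39.9 and 39.6 CPM in saline room air, 29.99, 39.8 and 36.9 CPM in ATG room air, 81.7, 73.7 and 75.2 CPM in saline hyperoxia, and 91.1, 86.9 and 65.9 in ATG hyperoxia. Every hyperoxia library lay above every room air library, and ATG hyperoxia 3 was the lowest of the oxygen-exposed lungs. With saline the group means were 41.2 ± 2.52 CPM in room air and 76.9 ± 4.26 CPM in hyperoxia, and with ATG 35.5 ± 5.02 and 81.3 ± 13.5 CPM (SD, n = 3). The log2 fold change was 1.05, SE 0.09, adjusted p = 2.71e-06 on average, 0.90, SE 0.13, adjusted p = 0.000664 in saline and 1.19, SE 0.13, adjusted p = 6.47e-05 in ATG (edgeR). It passed in these 3 comparisons in all alternatives tried.

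None of the other 10 genes of ER-associated degradation passed the test in any of the 3 hyperoxia comparisons. The ligase Syvn1 (HRD1) had an average change of −0.19, adjusted p = 0.0587 and its partner Sel1l of 0.11, adjusted p = 0.287 (edgeR). The mannose-trimming proteins Edem1, Edem2 and Edem3 had average log2 changes of −0.10, −0.11 and −0.05, and the lectins Os9 and Erlec1 of −0.02 and −0.12. The channel proteins Derl1 and Derl2 had changes of 0.09 and 0.10. Their relative Derl3 was under 2 CPM in all libraries and its estimate is wide (−1.33, SE 0.53, adjusted p = 0.0876; edgeR).

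Of the 3 sensors, Atf6, which is cut in the Golgi to free a transcription factor, was called higher. Atf6 stood at 202, 194 and 224 CPM in saline room air, 217, 192 and 229 CPM in ATG room air, 239, 255 and 244 CPM in saline hyperoxia, and 264, 259 and 242 in ATG hyperoxia. All hyperoxia libraries lay above all room air libraries. The average change was 0.26, SE 0.06, adjusted p = 0.00562 (edgeR) and passed in all alternatives, while 0.25, adjusted p = 0.0744 in saline and 0.26, adjusted p = 0.0547 in ATG missed the threshold.

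Ern1 (IRE1 alpha), the kinase and nuclease that splices Xbp1 mRNA, stood at 23.96, 22.3 and 19.7 CPM in saline room air, 20.3, 15.1 and 20.2 CPM in ATG room air, 24.8, 21.6 and 26.8 CPM in saline hyperoxia, and 22.1, 26.4 and 21.8 in ATG hyperoxia. Its groups overlapped in saline and not in ATG, and the average change did not pass (0.24, adjusted p = 0.111; edgeR). Eif2ak3 (PERK), the kinase that slows translation, stood at 27.9, 25.1 and 28.6 CPM in saline room air, 20.98, 22.7 and 24.3 CPM in ATG room air, 23.3, 27.97 and 24.4 CPM in saline hyperoxia, and 22.9, 26.02 and 21.7 in ATG hyperoxia. Its room air and hyperoxia groups overlapped, with an average change of −0.03, adjusted p = 0.855 (edgeR).

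Xbp1 encodes the transcription factor that IRE1 activates. Xbp1 stood at 179, 181 and 173 CPM in saline room air, 161, 223 and 174 CPM in ATG room air, 148, 158 and 168 CPM in saline hyperoxia, and 157, 183 and 168 in ATG hyperoxia. The saline groups were apart, with hyperoxia lower, and the ATG groups overlapped, ATG room air 2 being the highest of all libraries. The average change was −0.15, adjusted p = 0.164 (edgeR). Counts per gene do not tell the spliced from the unspliced form, and neither phosphorylation nor cleavage of the sensors was measured.

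Taken one injection at a time, hyperoxia gave fewer calls. In saline-injected pups 4 of the 39 genes were lower and 1 higher, against 4.5% lower and 4.7% higher (9.19% in either direction) of all genes. The count of 5 fell to 3 without saline room air 1 or 2, to 2 without any 1 saline hyperoxia library and to 1 without saline room air 3. In ATG-injected pups 11 were lower and 1 higher, against 6.25% and 5.41% (11.7% in either direction) of all genes. That count of 12 fell to 6 without ATG room air 1 or without ATG hyperoxia 1. In those fits the share of all genes called was 4.62% to 7.29% in saline, and 7.17% and 8.21% in ATG. At an unadjusted p under 0.05 there were 12 genes in saline, against 22.7% of all genes, and 21 in ATG, against 25.1%.

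The choice of fit ended some of these single-injection calls. With sex in the model, Pdia6 no longer passed in saline (−0.20), and Dnajc3, Sdf2l1, Calr and Ssr3 no longer passed in ATG (−0.31, −0.49, −0.29 and −0.27; edgeR). All 3 saline room air libraries were from males. Without the filter on low counts, Pdia6 was lost in saline (−0.26) and Sdf2l1 in ATG (−0.53; edgeR). With only the 6 ATG samples fitted, Dnajb11, Dnajc3, Sdf2l1, Pdia4, Calr and Ssr3 were lost (−0.27, −0.30, −0.52, −0.32, −0.27 and −0.27; edgeR), and 8.3% of all genes were called.

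Read sample by sample, some genes kept apart in the same direction in both injections, which share no library, and 25 of the 39 did not. In saline 14 of the 39 genes had every hyperoxia library below every room air library and 7 had every one above, against 14.9% and 14.6% of all genes. In ATG these were 18 and 3, against 13.9% and 13.7%. In both at once 12 genes were lower and 2 higher, against 7.55% and 7.25% of all genes. The 12 were Hspa5, Hsp90b1, Dnajb11, Pdia3, Pdia4, Pdia6, P4hb, Sec61a1, Sec61b, Ssr1, Ssr3 and Syvn1, and the 2 were Herpud1 and Atf6.

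The difference between the injections was not itself called for any gene. The interaction, the hyperoxia effect in ATG less that in saline, gave 0 of 39 genes and 0% of all genes by edgeR. At an unadjusted p under 0.05 there was 1 gene, Sdf2l1 (−0.58, adjusted p = 1; edgeR), and 2.95% of all genes, and DESeq2 and limma-voom also called 0 of the 39. Its estimate was negative in 28 of the 39 genes, against 52.8% of all genes. The median log2 difference was −0.06 against −0.01 over all genes. With each library left out that median ran from −0.10 without ATG room air 2 to −0.01 without saline hyperoxia 3, where the median of all genes was 0.00. For Hspa5 it was −0.19 with a standard error of 0.11.

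ATG against saline asked whether the drug alone moved these genes. In room air edgeR called 0 of 39, as it called 0% of all genes. Unadjusted p-values under 0.05 were found for 6 of the 39 genes and 6.02% of all genes, and DESeq2 and limma-voom also called 0 of the 39. The estimates were small and mostly upward: 31 of 39 were positive and 8 negative, against 47.2% negative over all genes. Their median was 0.08, against 0.01 over all genes and 0.09 over the 101 tested genes of the wider lists described further on. The 7 chaperones and cochaperones were all among the positive ones, from 0.04 for Dnajb9 to 0.33 for Sdf2l1.

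The library values behind this are those of the room air groups given above. For Hspa5 the 3 ATG room air libraries lay above the 3 of saline room air, a log2 difference of 0.24 with a standard error of 0.08 (edgeR, adjusted p = 0.818). In all, 10 genes had every ATG library above every saline library, against 6.26% of all genes: Hspa5, Hsp90b1, Hyou1, Dnajb11, Dnajc3, Sdf2l1, Pdia3, Pdia4, P4hb and Calr. Pdia5 and Eif2ak3 had every ATG library below, against 5.72% of all genes. The ATG room air libraries also serve as the baseline of hyperoxia in ATG, so these values and the larger falls there share samples. The summed level of the 8 type 2 cell markers was likewise higher in all ATG room air libraries than in all saline room air libraries, by the ranges given above. Its part in these values was not tested.

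In hyperoxia the estimates for the drug fell on both sides of 0. edgeR called 0 of 39 genes and 0.00634% of all genes. At an unadjusted p under 0.05 there were 0 of the 39 and 5.69% of all genes, and DESeq2 and limma-voom called 0 of the 39 too. The median was 0.00, from −0.02 to 0.04 with each library left out. Of the 39 estimates 21 were positive and 18 negative, against 49.8% negative over all genes. P4hb had every ATG library above every saline library, against 5.55% of all genes, and Os9, Ppib and Sdf2l1 every one below, against 5.54%. Averaged over oxygen, edgeR called 0 of 39 genes and 0.0444% of all genes (0.0381% higher, 0.00634% lower), with 2 of 39 against 8.47% at an unadjusted p under 0.05, and 0 of 39 by DESeq2 and limma-voom. For Hspa5 that average was 0.15 with a standard error of 0.05.

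**Figure D4:**
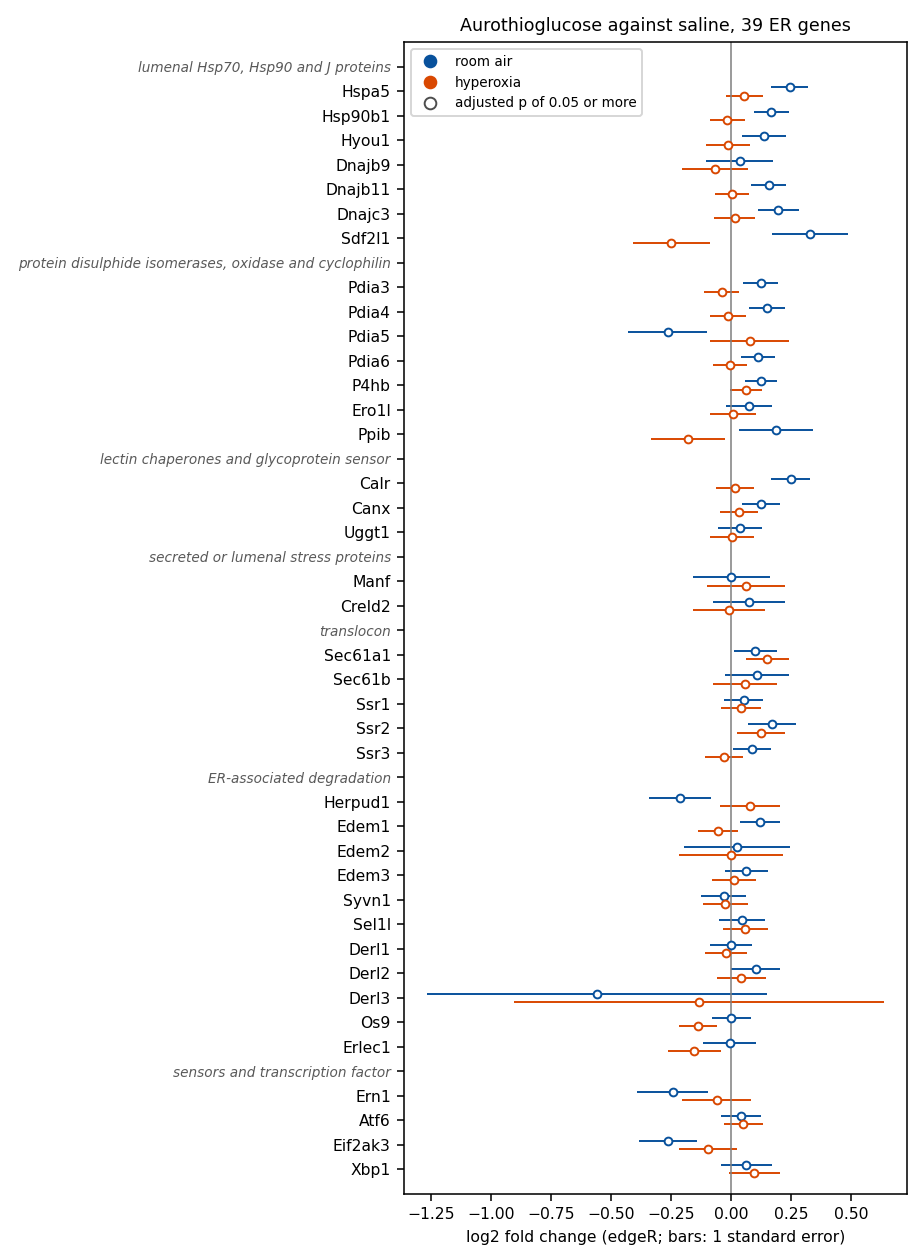
Log2 fold change of ATG against saline (x axis) for each of the 39 ER genes in room air and in hyperoxia, with bars of 1 standard error (edgeR). All dots are open because no gene reached an adjusted p under 0.05. In room air 31 of 39 dots lie to the right of 0, and in hyperoxia 21.

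The 39 genes did not move as 1 block. Over the 12 libraries, Pearson's r of log2 CPM with Hspa5 was above 0.8 for 11 and below 0 for 10 of the 37 other genes with a mean of at least 5 CPM. P4hb (r = 0.95), Pdia6 (0.95) and Hsp90b1 (0.93) were the closest of them, and Herpud1 was the farthest at −0.90. Among all 11972 genes at that level the 5 most like Hspa5 included Kdelr2 (r = 0.97, Spearman's rho 0.96), Arf4 (0.96 and 0.94), P4hb (0.95 and 0.88) and Pdia6 (0.95 and 0.92). Kdelr2 encodes a receptor that returns escaped chaperones to the ER and Arf4 a small GTPase of Golgi traffic. With the group means taken out, r was 0.58 for Kdelr2, 0.39 for Pdia6, 0.28 for P4hb and 0.0564 for Hsp90b1. The points share library depth and group, so these are descriptions.

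A wider set of 105 ER genes, in 4 lists of the same pathway, was read from the same fit, and 101 of them were tested. With hyperoxia averaged over injections 12 were higher and 15 lower, shares near the 11% and 11.3% of all genes. In saline 5 were higher and 5 lower, and in ATG 7 and 9. The drug gave 0 calls among them by edgeR in room air, in hyperoxia and on average.

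Folding and oxidation genes leaned the same way as the chaperones, with 10 of 35 lower and 2 higher on average. Prdx4, the peroxiredoxin of the ER, stood at 35.2 ± 0.951 and 37.5 ± 2.40 CPM in the room air groups with saline and ATG, and fell to 23.6 ± 3.46 and 24.4 ± 0.833 CPM with hyperoxia (SD, n = 3; average log2 fold change −0.60, edgeR adjusted p = 0.000108). Kdelr2 stood at 299.99 ± 2.02 and 336 ± 9.12 CPM in the room air groups with saline and ATG, and at 244 ± 13.7 and 251 ± 13.6 CPM in the hyperoxia groups (SD, n = 3; −0.36, edgeR adjusted p = 0.00015). Lepre1, a collagen prolyl 3-hydroxylase, changed by −0.49 (edgeR adjusted p = 0.000181) and Gpx7, an ER peroxidase, by −0.52 (edgeR adjusted p = 0.0012). Lepre1 and other genes of this list act on collagen. The summed level of 6 fibroblast and matrix markers was 6116 to 7049 CPM in saline room air and 5203 to 7089 CPM in saline hyperoxia, 5405 to 6888 CPM in ATG room air and 5023 to 5655 CPM in ATG hyperoxia. The 6 club and secretory cell markers summed to 12461 to 17684, 10722 to 12779, 11414 to 19860 and 11920 to 13490 CPM in the same order. The 5 plasma and B cell markers went up with hyperoxia, at 154 to 175, 192 to 217, 181 to 201 and 227 to 243 CPM in that order. Thymocyte markers reached 75.2 CPM in saline hyperoxia. Their highest sums were 16.1 CPM in saline room air, 18.1 CPM in ATG room air and 10.5 CPM in ATG hyperoxia. The part of all these cells in the hyperoxia changes was not tested.

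Of 24 translocation and glycosylation genes 3 were lower and 0 higher. Ddost, of the oligosaccharyltransferase, had −0.21 on average (edgeR adjusted p = 0.0162), a call that was lost without saline room air 2, saline hyperoxia 1 or ATG hyperoxia 3 (−0.19 to −0.17). Tram1 had −0.18 (edgeR adjusted p = 0.0174) and passed in neither injection alone, and Ostc −0.24 (edgeR adjusted p = 0.0244). The Tram1 call was lost without any 1 of 5 libraries, namely saline room air 1, ATG room air 3, saline hyperoxia 1, and ATG hyperoxia 1 or 2 (−0.16 to −0.15). The Ostc call was lost without any 1 of 8, and remained only without saline room air 3, ATG room air 1, saline hyperoxia 2 or ATG hyperoxia 2 (−0.23 to −0.19 where it was lost). The list's median was −0.00.

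Of 22 degradation genes 3 were higher and 1 lower. Vcp, the ATPase that pulls proteins out of the ER, fell by 0.27 on the log2 scale on average (edgeR adjusted p = 0.00179). The ubiquitin-conjugating enzyme Ube2g2 rose by 0.31 (edgeR adjusted p = 0.00756), and Aup1, which recruits it, by 0.41 (edgeR adjusted p = 0.0126). The ligase Rnf139 rose by 0.22 (edgeR adjusted p = 0.0355), a call that was lost without saline room air 2, ATG room air 1, saline hyperoxia 3, or ATG hyperoxia 1 or 2 (0.18 to 0.22).

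Sensing and signalling genes leaned upward, with 7 of 21 higher and 1 lower on average. The largest rises were in the branch downstream of PERK, which other kinases of translation factor eIF2 also feed. Chac1, an enzyme that breaks down glutathione, stood at 1.42 ± 0.812 CPM in saline room air, 3.10 ± 0.407 in ATG room air, 9.39 ± 3.10 in saline hyperoxia and 12.6 ± 2.52 in ATG hyperoxia (SD, n = 3), a log2 fold change of 2.36 (edgeR adjusted p = 1.23e-05). Atf4 stood at 80.6 ± 6.96 and 95.8 ± 7.82 CPM in the room air groups with saline and ATG, and rose to 119 ± 7.06 and 151 ± 16.8 CPM with hyperoxia (0.61, edgeR adjusted p = 2.69e-05). Trib3, a pseudokinase, rose by 2.19 (edgeR adjusted p = 5.37e-05). Ddit3 (CHOP), a transcription factor of ER stress, rose by 1.28 (edgeR adjusted p = 0.00013) and stood at 3.17 ± 0.359, 4.26 ± 1.11, 9.44 ± 1.41 and 8.47 ± 2.03 CPM in saline room air, ATG room air, saline hyperoxia and ATG hyperoxia. These 4 passed in saline and in ATG alone as well. So in the same hyperoxia libraries Atf4, Ddit3, Chac1, Trib3 and Herpud1 were higher while Hspa5, Hsp90b1, P4hb and Pdia6 were lower.

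**Figure D5:**
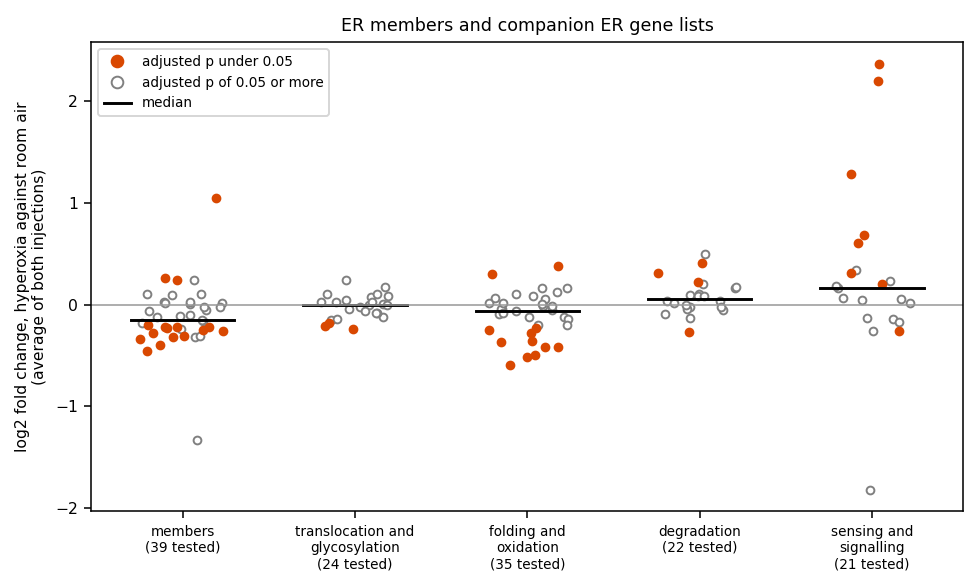
Log2 fold change of hyperoxia against room air, averaged over injections (y axis), for each tested gene of the 39 and of the 4 wider ER lists (columns). Filled dots passed an adjusted p under 0.05 (edgeR) and black bars are medians. The folding column holds 10 filled dots below 0 and 2 above, and the sensing column 7 above and 1 below.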

How the data were processed

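Lungs without lavage fluid gave total RNA that was amplified with the NuGEN Ovation V2 system, made into Nextera XT libraries and sequenced from both ends to 75 bases, as stated per the labels' protocols. What the authors deposited is 1 table of raw read counts by gene symbol, with a column for each of 12 libraries and no normalization. Bowtie2, Cufflinks, DESeq and mm10 are named, without versions or roles, per the submitters' processing notes. How reads were counted (tool, strand, reads with several matches, annotation) is not given in the sources used here, so overlapping or duplicated genes are uncertain.

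Columns were matched to samples by name and groups came from the labels. The 39 genes and all lists were chosen with earlier results of these data known. Genes were kept by filterByExpr (minimum count 10, minimum total 15), which left 15761 of 23478, 3350 of them having no count. After TMM scaling all 12 samples were fitted together, 1 mean per group, with edgeR's quasi-likelihood test (8 residual degrees of freedom, two-sided, Benjamini-Hochberg over all genes tested, threshold 0.05). The common biological coefficient of variation was 18.7%. The 7 contrasts were hyperoxia in each injection and averaged, ATG in each gas and averaged, and the interaction. For correlations, log2 CPM had a prior count of 2. Amplified reads are not independent molecules. Replicates differed beyond sampling noise (chi-square per degree of freedom 6.27 to 37.2). The test was checked on simulated counts.

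Genes given in every sample were the 15 with the smallest adjusted p in any contrast but the interaction, and Hspa5, Hsp90b1, Herpud1 and the sensors with Xbp1. From the wider lists, 105 genes with 104 in the table, up to 4 per list with the smallest adjusted p were named, shown for the averaged contrast. Symbols were matched to RefSeq's gene table of GRCm38.p6 (38 by symbol, 1 by synonym), which also gave promoters, and exon lengths and shared 50-base windows came from GENCODE transcripts. The settings tried beside it were limma-voom, DESeq2, RLE size factors, no filter on low counts, a replicate block, sex as a covariate, only the samples compared, and leaving out each library, the 2 libraries rich in heart RNA, or these and the 1 rich in muscle RNA. Sex was read from sex-linked genes (5 females, 7 males). Protein sequences were not used here. The work used edgeR 4.0.16, DESeq2 1.42.0 and limma 3.58.1 under R 4.3.3. Of the 5 genes with the pattern most like Hspa5, 1 is not reported here.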

Additional observations from a re-analysis of the deposited data

How the results depend on the processing

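Over 68 results of single genes that passed the test, 1397 alternative fits gave 1207 that still passed, 190 that did not and 0 that changed sign. Genes that did not pass were not followed in this way. For hyperoxia averaged over injections, the count of 16 of the 39 genes was 14 to 17 with each library left out and fell to 9 without the 3 libraries rich in heart or muscle RNA, while the share of all genes called was 18.2% to 23% and 15.7%. The count of 5 in saline was 1 to 7 with each library left out, 3 without the 2 libraries rich in heart RNA and 1 without the 3, with 4.62% to 10.6%, 9.65% and 4.77% of all genes. The count of 12 in ATG was 6 to 11 with each library left out, 6 when only the 6 ATG samples were fitted, and 9 without the 3 libraries, with 7.17% to 12.8%, 8.3% and 9.1% of all genes. The cause of these falls in count was not tested, and each of these fits also had fewer samples. All ATG comparisons and the interaction stayed at 0, lowest and highest with each library left out. Other tools and settings gave 4 to 7, 10 to 15 and 16 to 20 genes in saline, in ATG and on average. The share of all genes called moved with them. It ran from 7.05%, 8.93% and 17.1% without the filter on low counts to 12.3%, 14.9% and 24.9% with DESeq2.

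The labels' replicate numbers mark no stated litter or day. Over 18 same-numbered pairs, deviations from the group means correlated by −0.16 to 0.28, with 2 over 0.1. Both of these paired saline hyperoxia with ATG hyperoxia, at 0.28 for replicate 2 (the heart-rich libraries) and 0.13 for replicate 3. Such correlations cannot tell whether samples of 1 number shared a litter or day. With the replicate block, 5 genes were called in saline, 13 in ATG and 18 on average, against 8.6%, 11.2% and 21.8% of all genes. For the drug and the interaction 0 were called, against at most 0.019% of all genes. Of the calls described above, the block ended the ATG call of Sdf2l1 (−0.53, edgeR adjusted p = 0.0593) and the average call of Rnf139 (0.22, edgeR adjusted p = 0.0515).

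Depth limits Derl3, under 2 CPM. With 3 samples a group, standard errors of single-injection changes were at least 0.07 on the log2 scale, so smaller changes than those called could not be resolved. No scaling moved the median of all genes by over 0.1. Each scaling sets the typical gene near no change, so a shift of most genes together could not be seen.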
